A study of Mus musculus with 6 samples.

Results

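Genes of the translation initiation factors and elongation factors were followed in the mouse uterus after progesterone. The set was defined by name alone, as the genes whose symbol begins with Eif1 to Eif6 or with Eef1 or Eef2 and that had a probe set annotated to no other gene. It held 58 of the 18193 genes measured. Of these, 42 had several probe sets, and the brightest of them on average stood for the gene. Not every gene of the set is itself a factor: Eef1akmt1, Eef1akmt2, Eef1aknmt and Eef2kmt encode methyltransferases that modify eEF1A or eEF2, Eif2ak1 to Eif2ak4 and Eef2k encode kinases, Eef1e1 encodes a scaffold of tRNA synthetases, and Eif1ad is named for its eIF1A-like domain. Eif1, Eif2s1, Eif3g and Eif4g1 were not analysed here. The same holds for Eif3j1, Eif3j2, Eef1g and Eif4ebp3, whose 6 probe sets carry the symbols of several genes.

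Both groups were female mice on a mixed background that carried the floxed Gata2 allele (Gata2 f/f), with no recombinase named, and both lacked ovaries, which had been removed at 6 weeks of age. The control group was given sesame oil and the treated group progesterone (1 mg in 100 µl of that oil), in mice aged 8 weeks, and uteri were collected after 6 h. For each treatment 3 one-colour arrays were run on total RNA that is labelled as a pool of 3 mice. The labels leave it unsaid whether the arrays of a group came from separate pools, and p-values therefore reflect only the variation among these arrays, some of which may be technical. Expression is given as log2 values from RMA, a method that corrects background, normalizes the arrays and combines a probe set's probes. Precision is limited by having 3 arrays per group. In whole tissue, fewer cells of a type and less RNA per cell cannot be told apart.

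Translation of most mRNAs starts when eIF4F, made of the cap-binding protein eIF4E, the helicase eIF4A and the scaffold eIF4G, meets the cap and recruits the small ribosomal subunit. That subunit carries eIF3, eIF1, eIF1A and the initiator tRNA held by eIF2 with GTP. The exchange factor eIF2B recharges eIF2, and kinases that phosphorylate eIF2 block the exchange under stress. The 4E-binding proteins sequester eIF4E until the TOR kinase phosphorylates them. In elongation, eEF1A delivers aminoacyl-tRNAs and eEF2 moves the ribosome along the mRNA. Growing tissues raise their translation capacity, and the uterus grows and differentiates under ovarian steroids.

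Promoter windows were searched because several initiation factor genes changed together. RefSeq windows on GRCm38.p6, from 250 bases before a start site to 50 after it, matched 47 of the 58 genes. The E-box CACGTG, the core site of Myc family factors and the same on both strands, was in a window of 12 of these 47 genes (25.5%), against 10.2% of all measured genes with a window and 7.15% of all windows of this length. It was present in 3 of the 9 matched genes that rose after progesterone (Eif3a, Eif4a1 and Eif4e), in Eif3f of the 2 that fell, and in 8 of the 36 that did not pass (22.2%). Among all genes that rose, 17.0% had it, and among all that fell, 11.5%. The ATF4 element TGATGNAAT, searched on both strands, and the palindromic progesterone response element were in no window of the set. Of all measured genes with a window 0.727% and 0.0138% had them, and 0.965% and 0.00913% of all windows held them. With shares this low, absence from 47 genes says little. A match is a description of these letters, not of a bound site.

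The E-boxes of the genes that changed are shown in capitals. The Eif4e stretch runs from 250 to 19 bases before the start site (chr3:138527018-138527249, plus strand), with E-boxes that begin 228 and 64 bases before it. That of Eif4a1 lies at chr11:69672567-69672652 on the minus strand, with the E-box beginning 189 bases before the start site, and that of Eif3f at chr7:108934307-108934392 on the plus strand, 68 bases before it. In Eif3a the E-box lies after the start site (chr19:60790654-60790683, minus strand).
Eif4e: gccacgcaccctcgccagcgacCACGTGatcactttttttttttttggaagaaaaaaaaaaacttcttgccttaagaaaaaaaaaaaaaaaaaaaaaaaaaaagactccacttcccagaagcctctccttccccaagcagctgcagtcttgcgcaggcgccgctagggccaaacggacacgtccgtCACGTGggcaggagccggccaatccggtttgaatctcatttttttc
Eif4a1: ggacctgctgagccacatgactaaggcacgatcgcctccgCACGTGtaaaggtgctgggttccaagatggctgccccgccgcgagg
Eif3f: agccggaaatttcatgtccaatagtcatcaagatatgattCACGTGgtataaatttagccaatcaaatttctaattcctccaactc
Eif3a: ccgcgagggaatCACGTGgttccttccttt

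Many mRNAs of the translation apparatus begin with a terminal oligopyrimidine (TOP) tract, a C followed by further C or T bases, through which TOR controls their translation. A C at the annotated start followed by at least 4 C or T was found in 2 of the 47 genes (4.26%), Eif3f and Eif2s3x, against 2.93% of all measured genes with a window. The start sites of both are shown from 10 bases before to 20 after the start, with the tract in capitals (chr7:108934405-108934434, plus strand, and chrX:94212632-94212661, minus strand). Eif3f fell and Eif2s3x did not pass. A tract that begins some bases away from the annotated start was not counted, so the shares with a tract may be too low.
Eif3f: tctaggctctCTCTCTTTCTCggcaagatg
Eif2s3x: gagcattttcCTTTTCTCTCCgagcaagat

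After progesterone, 10 of the 58 genes were higher, 2 were lower and 46 did not pass (limma, Benjamini-Hochberg adjusted p under 0.05 over all genes). The genes that rose were Eef1e1, Eif4e, Eif2b3, Eif4a1, Eif2s2, Eif3b, Eif3d, Eif2b5, Eif1ad and Eif3a, and those that fell were Eif4b and Eif3f. Higher genes made up 17.2% of the set against 5.92% of all genes, and lower genes 3.45% against 5.83%. The set was chosen with earlier results of these data known, so these shares are a description only. The changes were small, between -0.51 and 1.15 on the log2 scale, with a median of 0.10 against -0.02 over all genes. The 3 arrays of one group lay apart from the 3 of the other for 21 genes that were higher and 9 that were lower, together 51.7% of the set, where the share over all genes was 30.4% (14.5% higher and 15.9% lower). An unadjusted p under 0.05 was reached by 26 of the 58 genes and by 4730 of all genes (26.0%). With the replicate number as a block, 13 genes of the set were higher and 2 lower, against 7.6% and 8.49% of all genes (16.1% together).

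**Figure D1:**
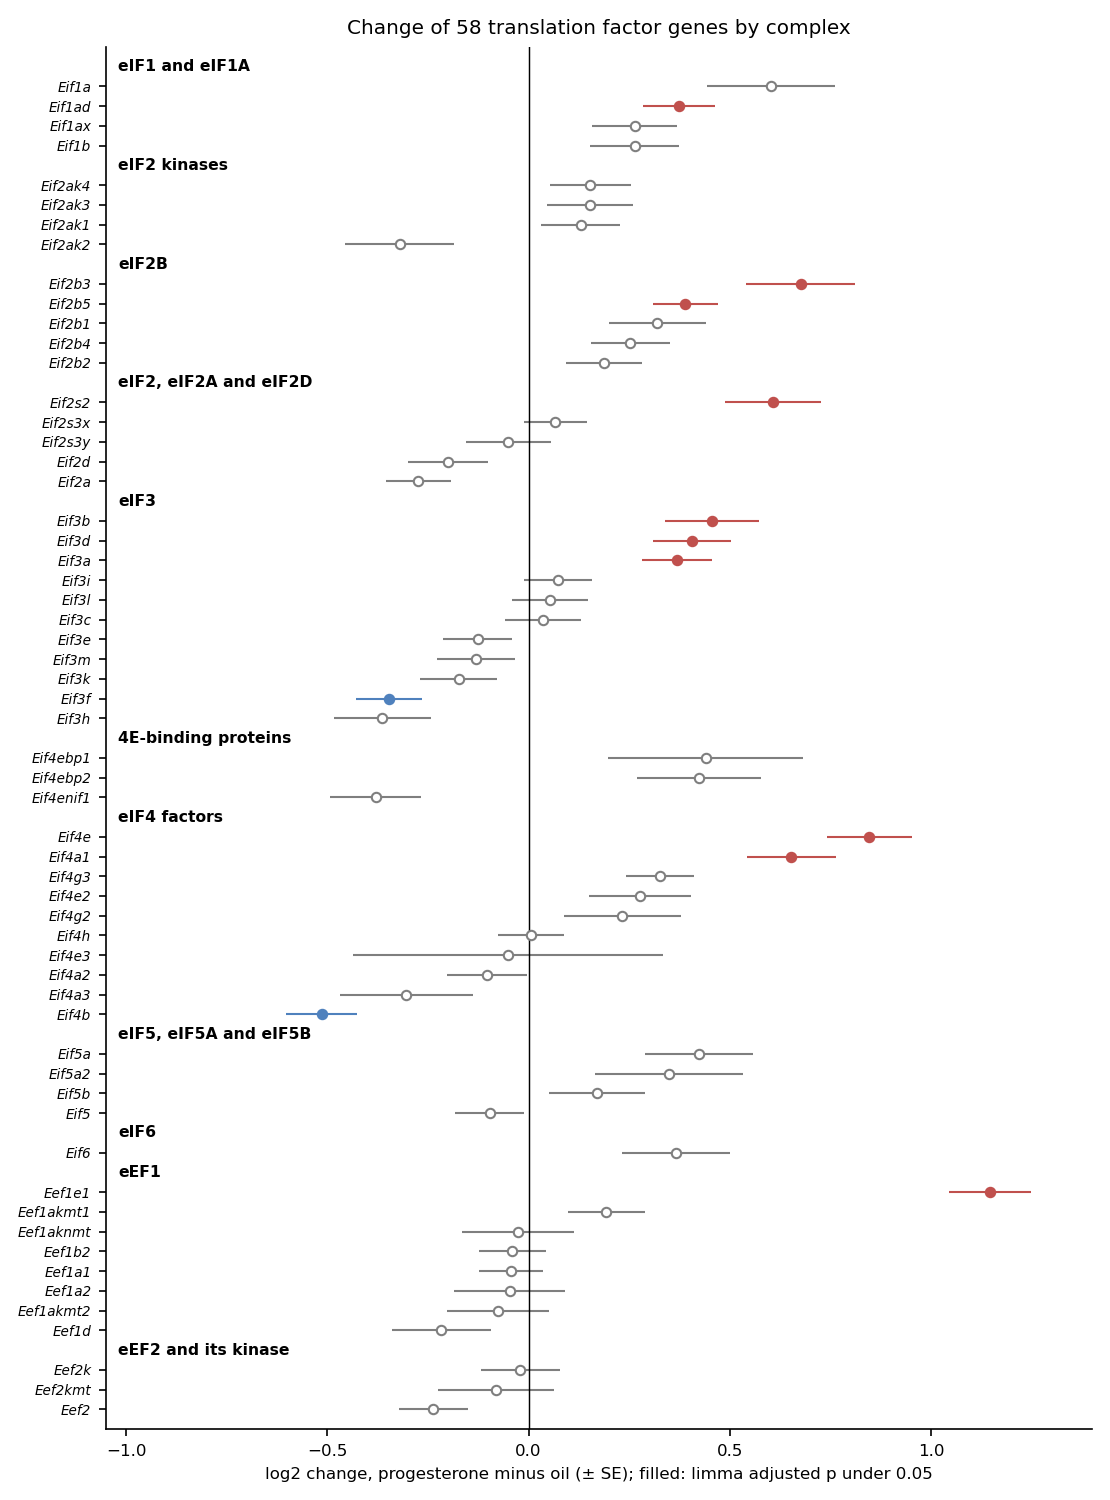
Log2 change (progesterone minus oil, with its SE) of each of the 58 genes, ordered by complex, with filled points for genes past the threshold. All 5 eIF2B genes and all 4 genes of eIF1 and eIF1A lie above 0, while the eIF3 genes run from -0.36 to 0.46.

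The cap-binding and helicase subunits of eIF4F rose together. Eif4e, the cap-binding subunit, lay at 9.73, 9.60 and 9.74 on oil replicates 1 to 3 and at 10.39, 10.68 and 10.54 on progesterone replicates 1 to 3. Every progesterone array was above every oil array, and the difference was 1.80-fold (log2 change 0.85 ± 0.106 SE, limma adjusted p = 0.00557). Likewise, the helicase gene Eif4a1 went from 11.95, 11.91 and 12.09 to 12.46, 12.71 and 12.74, also with no overlap (1.57-fold, log2 change 0.65 ± 0.111 SE, adjusted p = 0.0134). Its paralogue Eif4a2 lay at 12.61, 12.50 and 12.48 with oil and at 12.56, 12.40 and 12.32 with progesterone, where the groups overlapped (log2 change -0.10, 95% interval -0.34 to 0.13). Within arrays the difference between Eif4a1 and Eif4a2 shifted by 0.76 on the log2 scale, and that between Eif4e and its homologue Eif4e2 by 0.57. These pairs were chosen after their values were seen, and the shifts were not tested.

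Eif4b, a cofactor that stimulates the helicase, moved the other way. It lay at 11.78, 11.69 and 11.72 with oil and at 11.31, 11.18 and 11.16 with progesterone, so that every progesterone array was lower (1.43-fold, log2 change -0.51 ± 0.0884 SE, limma adjusted p = 0.0141). Eif4h, which resembles Eif4b in function, had a log2 change of 0.01 (95% interval -0.19 to 0.20). Among the scaffolds, Eif4g3 was at 9.62, 9.57 and 9.61 with oil and at 9.87, 9.90 and 10.01 with progesterone, just short of the threshold (adjusted p = 0.052, and 0.048 with arrays centred on their medians), and Eif4g2, a scaffold that does not bind eIF4E, had a log2 change of 0.23 (adjusted p = 0.387). Eif4e2 had a change of 0.28 (adjusted p = 0.225). Of the 10 eIF4 genes Eif4e3 varied most within the groups, with an SD of 0.782 with oil, where replicate 3 was lowest at 8.18, and 0.390 with progesterone. The probe set used for Eif4a3, a helicase of the exon junction complex, read between 3.08 and 3.78, close to the TrpnX control probe sets without a mouse target (up to 3.34), and says little about this gene. Another probe set carries the symbols of both Eif4a3 and Gm5576 and was not used. Calls among the 10 eIF4 genes were thus 2 higher and 1 lower, with 7 short of the threshold. Over all genes 5.92% were called higher and 5.83% lower.

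None of the 3 genes of the 4E-binding proteins passed in limma, and 2 had an unadjusted p under 0.05 (26.0% of all genes did). Eif4ebp2 was at 7.72, 7.91 and 8.23 with oil and at 8.21, 8.37 and 8.55 with progesterone, and its adjusted p of 0.134 became 0.0304 with the replicate block. Eif4ebp1 was at 8.46, 8.83 and 8.72 and then at 8.63, 9.62 and 9.08, a log2 change of 0.44 with an interval from -0.13 to 1.01. Eif4enif1, the transporter that carries eIF4E into the nucleus, had a change of -0.38 with no overlap between the groups (adjusted p = 0.0744).

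**Figure D2:**
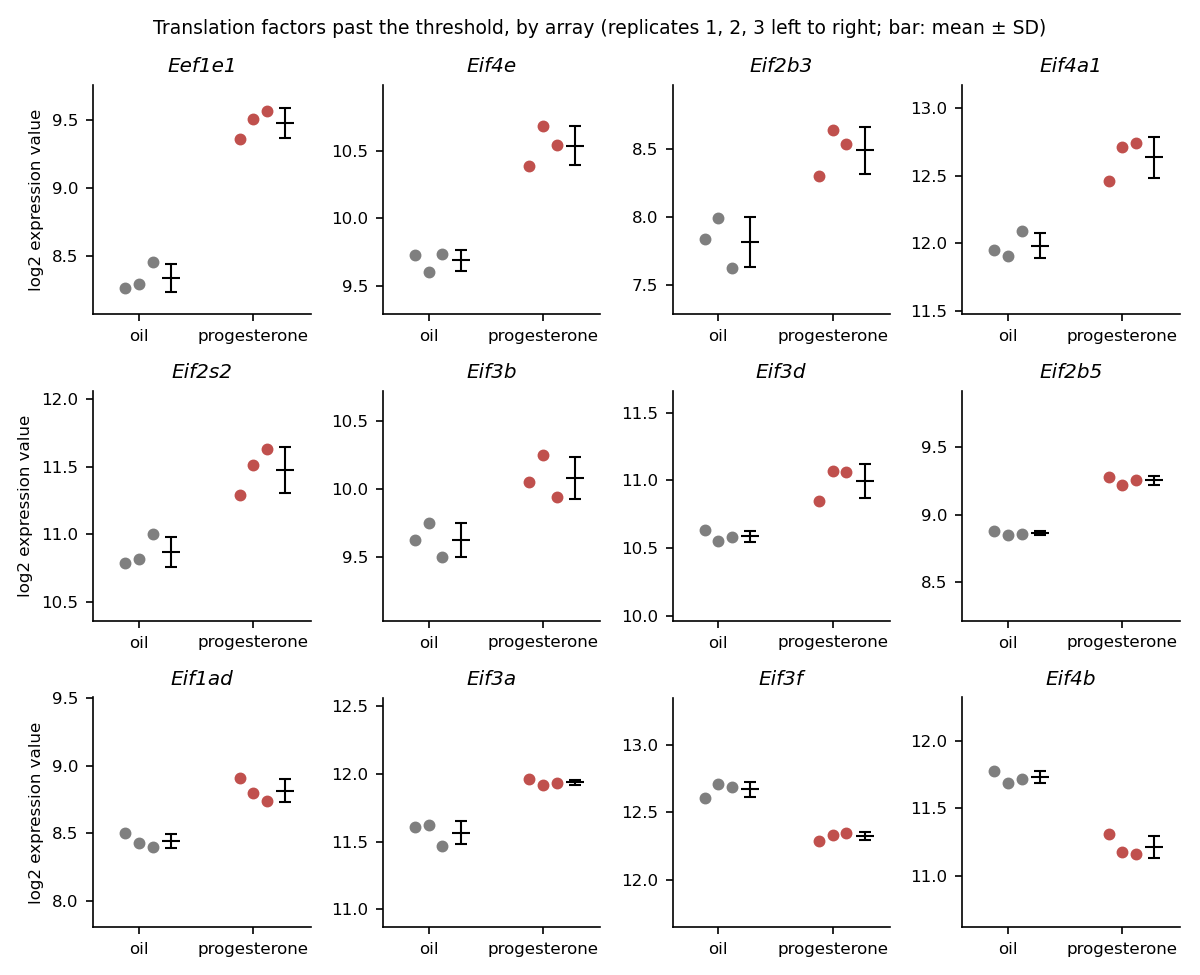
Log2 expression value on each array for the 12 genes past the threshold, with oil replicates in grey, progesterone replicates in red and the mean ± SD beside each group. Each panel spans the same log2 range around its own values, and in every panel the groups lie apart.

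In the eIF2 cycle, the 5 genes of the exchange factor eIF2B shared a direction. On the probe set used, each had all progesterone arrays above all oil arrays, as did 14.5% of all genes. Of the 5, 2 passed, where 5.92% of all genes were called higher. Eif2b3, the gamma subunit of the catalytic part, was at 7.84, 7.99 and 7.62 with oil and at 8.30, 8.64 and 8.54 with progesterone (1.60-fold, log2 change 0.68 ± 0.135 SE, limma adjusted p = 0.0225). Eif2b5, the catalytic epsilon subunit, was at 8.88, 8.85 and 8.86 and then at 9.28, 9.22 and 9.26 (1.31-fold, adjusted p = 0.0242), with little spread in either group. The regulatory subunits Eif2b1, Eif2b4 and Eif2b2 had log2 changes of 0.32, 0.25 and 0.19 and did not pass (adjusted p between 0.143 and 0.275). In the dimmer probe sets of Eif2b2 the groups overlapped (log2 changes 0.25 and 0.24). They also overlapped in that of Eif2b5, which read at most 3.66 (-0.06).

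Of the subunits of eIF2 itself, the beta subunit gene Eif2s2 rose. It lay at 10.79, 10.82 and 11.00 with oil and at 11.29, 11.51 and 11.63 with progesterone (1.52-fold, log2 change 0.61 ± 0.119 SE, limma adjusted p = 0.0209). By contrast, the gamma subunit gene Eif2s3x was nearly level, at 11.16 to 11.18 with oil and 11.22 to 11.24 with progesterone, a change of 0.07 with an interval from -0.12 to 0.25. Its Y-linked copy Eif2s3y read 2.92 to 3.23 in these females, at or below the TrpnX controls on every array. Eif2a and Eif2d, which encode factors outside the eIF2 heterotrimer that can also bring initiator tRNA to the ribosome, had changes of -0.27 and -0.20 (adjusted p = 0.0783 and 0.263). None of the 4 eIF2 kinase genes passed in limma, and 1, Eif2ak2, had an unadjusted p under 0.05 (26.0% of all genes did). Eif2ak2, the kinase PKR of the interferon response, was at 6.60, 6.91 and 7.05 with oil and at 6.47, 6.47 and 6.66 with progesterone (adjusted p = 0.19). Eif2ak1, Eif2ak3 and Eif2ak4, which respond to haem shortage, endoplasmic reticulum stress and amino acid shortage, had changes between 0.13 and 0.15. Of the 4 other probe sets of Eif2ak1, a dimmer one passed (log2 change 0.43, adjusted p = 0.0331 over all probe sets).

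On the probe sets used, all 4 genes of the eIF1 and eIF1A group lay apart between the groups in the higher direction, as did 14.5% of all genes. Of the 4, 1 passed (5.92% of all genes were called higher). That was Eif1ad, at 8.50, 8.43 and 8.40 with oil and 8.91, 8.80 and 8.74 with progesterone (1.30-fold, log2 change 0.37, limma adjusted p = 0.04). Eif1a, which with Eif1ax encodes the factor that helps scan for the start codon, had a larger change, from 8.60, 8.72 and 8.85 to 9.03, 9.33 and 9.62 (log2 change 0.60 ± 0.159 SE, adjusted p = 0.0529, 0.0155 with the replicate block and 0.0258 without progesterone replicate 1). Another probe set of Eif1a passed (log2 change 0.64, adjusted p = 0.0148 over all probe sets). Eif1a and Eif1ax are close copies, and their probe sets may read both. Eif1ax and Eif1b each had a change of 0.26 (adjusted p = 0.169 and 0.187). Another probe set of Eif1ax also lay apart (log2 change 0.27), while a dimmer one overlapped between the groups (-0.04).

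The large scaffold eIF3 did not move as a unit. Its 11 genes had a median change of 0.04, with 3 called higher, 1 called lower and 7 not past the threshold. Over all genes 5.92% were called higher and 5.83% lower. Eif3b, the subunit that anchors the peripheral module, went from 9.62, 9.75 and 9.50 to 10.05, 10.25 and 9.94 (1.37-fold, log2 change 0.46 ± 0.117 SE, limma adjusted p = 0.0487). Eif3d, which can bind the cap of some mRNAs, went from 10.63, 10.55 and 10.58 to 10.85, 11.07 and 11.06 (1.33-fold, adjusted p = 0.0386). Eif3a, the largest subunit, was at 11.61, 11.62 and 11.47 with oil and at 11.96, 11.92 and 11.93 with progesterone (1.29-fold, adjusted p = 0.0374).

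Opposite to these, Eif3f, an MPN domain subunit, fell from 12.61, 12.71 and 12.69 to 12.29, 12.33 and 12.35 (1.27-fold, log2 change -0.35 ± 0.083 SE, limma adjusted p = 0.0393). Eif3h, the other MPN subunit, had the same direction with more spread, at 11.85, 12.12 and 11.75 and then at 11.44, 11.59 and 11.60 (log2 change -0.36 ± 0.121 SE, adjusted p = 0.104). Eif3k, Eif3m and Eif3e had changes of -0.17, -0.13 and -0.13, while Eif3c, Eif3l and Eif3i lay between 0.04 and 0.07, none past the threshold. Within arrays the difference between Eif3a and Eif3f shifted by 0.72, a pair chosen after its values were seen and not tested.

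Genes under the Eif5 and Eif6 names gave no call in the main fit. Of the 4 genes of eIF5, eIF5A and eIF5B, none passed in limma, and 1, Eif5a, had an unadjusted p under 0.05 (26.0% of all genes did). Eif5a, whose protein carries the hypusine residue made from spermidine, was at 12.31, 12.30 and 12.66 with oil and at 12.68, 12.92 and 12.94 with progesterone. The gap between oil replicate 3 and progesterone replicate 1 was narrow, and the adjusted p was 0.0906, or 0.0435 with the replicate block. Eif5a2, its paralogue, had a change of 0.35 (adjusted p = 0.293), Eif5b, the GTPase of subunit joining, of 0.17 and Eif5, which stimulates GTP hydrolysis by eIF2, of -0.10. Eif6, which keeps the large subunit apart from the small one, was at 9.34, 9.45 and 9.42 and then at 9.49, 9.92 and 9.90 (adjusted p = 0.132, and 0.0296 without progesterone replicate 1).

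Under the Eef names, the largest change of the whole set was that of Eef1e1, whose product, also known as AIMP3, is a scaffold of the multi-tRNA synthetase complex and not itself an elongation factor. Eef1e1 was at 8.26, 8.29 and 8.45 with oil and at 9.36, 9.51 and 9.57 with progesterone. This was a 2.21-fold rise (limma adjusted p = 0.00185), or 1.15 ± 0.102 (SE) on the log2 scale. Eef1a1, the main carrier of aminoacyl-tRNA, lay at 14.33, 14.30 and 14.34 and then at 14.27, 14.31 and 14.26, near the top of the array's range, where a change can be understated (log2 change -0.04, interval -0.23 to 0.14). Its exchange factor subunits Eef1b2 and Eef1d had changes of -0.04 (interval -0.24 to 0.16) and -0.22 (interval -0.51 to 0.07), and the muscle and nerve isoform Eef1a2 one of -0.05. A dimmer probe set of Eef1d went the other way without overlap (log2 change 0.47, limma adjusted p = 0.0799 over all probe sets). The remaining probe sets of Eef1d had changes of -0.18 and -0.11. The methyltransferase genes Eef1akmt1, Eef1akmt2 and Eef1aknmt did not pass, with changes of 0.19, -0.08 and -0.03.

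Eef2, the translocase, was at 13.37, 13.28 and 13.37 with oil and at 13.04, 13.16 and 13.11 with progesterone. All progesterone arrays were lower, but the change of -0.24 ± 0.0859 SE did not pass (limma adjusted p = 0.131). Eef2k, the kinase that inhibits eEF2, had a change of -0.02 (interval -0.25 to 0.21) and Eef2kmt one of -0.08.

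Other probe sets of the same genes were compared for 8 of the 12 genes that passed, the remaining Eef1e1, Eif2b3, Eif3b and Eif3f having a single one. When every probe set was tested on its own, 4.9% of the 34945 probe sets were higher and 4.09% lower, 8.99% in all (limma adjusted p under 0.05). Both other probe sets of Eif4a1 and both of Eif4b passed in the same direction, as did 3 of 5 of Eif2s2, 1 of 3 of Eif4e and the other one of Eif1ad. None of the 3 others of Eif3a passed, with changes from 0.34 to 0.53, and neither did the other one of Eif3d (log2 change 0.18) or Eif2b5 (-0.06), which read at most 5.16 and 3.66. No other probe set of these genes passed in the opposite direction. Over this larger number of tests the probe sets used for Eif1ad, Eif3b and Eif3f no longer passed.

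**Figure D3:**
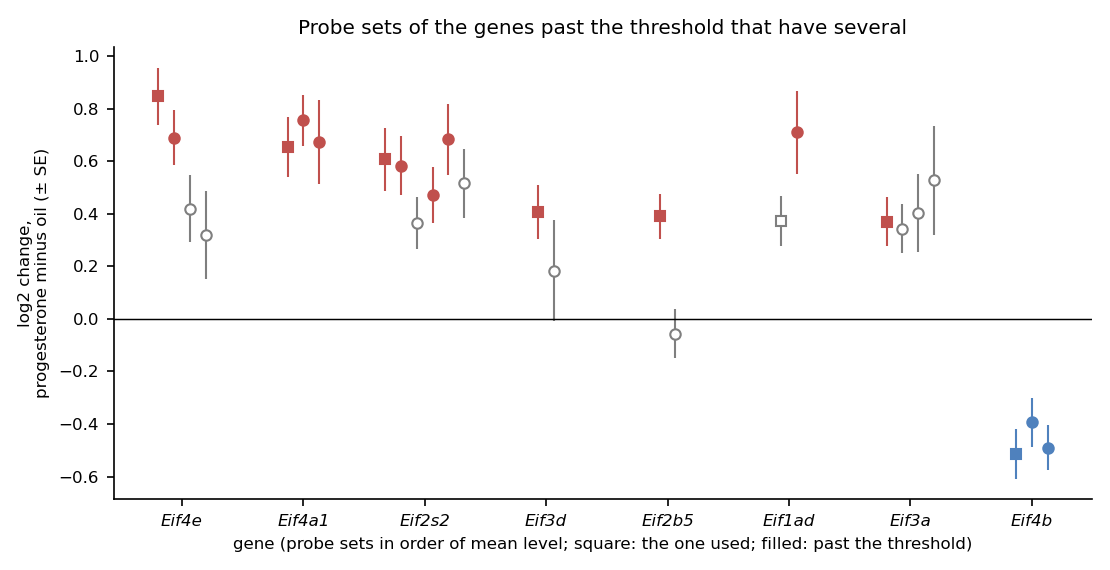
Log2 change (progesterone minus oil, with its SE) of every probe set of the 8 genes past the threshold that have several, in order of mean level within a gene. Squares mark the probe set used for the gene and filled points those past the threshold over all probe sets: the 3 probe sets of Eif4a1 lie between 0.65 and 0.76 and the 3 of Eif4b between -0.51 and -0.39.

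Many of these calls ended when 1 of the 6 arrays was left out, while the changes of the 12 genes stayed between 0.814 (Eif3b) and 1.18 (Eif3d) times their size over all arrays. Without oil replicates 1, 2 and 3 in turn, 2, 2 and 4 genes of the set were higher, against 2.51%, 2.08% and 3.95% of all genes, and 0, 0 and 1 lower, against 2.44%, 1.53% and 3.83%. Without progesterone replicates 1, 2 and 3 in turn, 8, 2 and 3 were higher, against 4.66%, 2.74% and 4.24%, and 1, 0 and 1 lower, against 4.99%, 2.75% and 3.44%. Eef1e1 and Eif4e passed in all 6 fits (adjusted p up to 0.0155 and 0.0331). The calls of Eif4a1 and Eif4b held in 3 of 6 and ended without oil replicate 1 (adjusted p = 0.0551 and 0.0591), oil replicate 2 (0.0651 and 0.0566) or progesterone replicate 2 (0.0534 and 0.054). That of Eif2s2 held in 2 of 6 and ended without oil replicate 1 or 2 (0.0814 and 0.0882) or progesterone replicate 2 or 3 (0.0726 and 0.0549). Eif2b3 and Eif3d passed only in the fit without progesterone replicate 1 (0.0243 and 0.0319), and their adjusted p was 0.051 to 0.077 and 0.0973 to 0.134 in the other fits. Eif1ad, Eif2b5, Eif3a, Eif3b and Eif3f passed in none of the 6 (adjusted p between 0.0562 and 0.139). The calls of Eif3a and Eif3b also ended after a further quantile normalization (adjusted p = 0.064 and 0.0549), and those of Eif2b5 and Eif3d with the mean of each gene's probe sets (0.209 and 0.159).

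**Figure D4:**
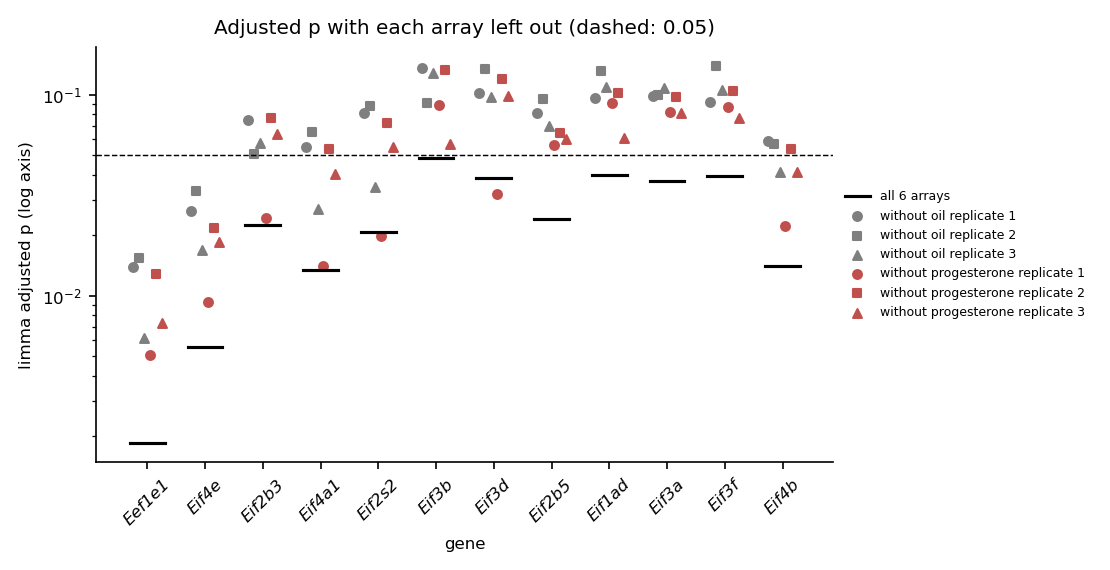
Limma adjusted p (log axis) of the 12 genes with all 6 arrays (black bar) and with each array left out (grey for an oil array, red for a progesterone array); the dashed line is 0.05. Eef1e1 and Eif4e stay under the line in all 6 fits.

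Other genes of translation were taken from 9 lists, and 60 of their genes were measured. Of these 18 were higher (30%), 4 were lower (6.67%) and 38 did not pass, against 5.92% and 5.83% of all genes, and the median change was 0.21. The lists were chosen with earlier results of these data known, so these shares are a description only. In termination and recycling 3 of 6 were higher: Abce1, which splits ribosomes after termination, rose 1.89-fold (limma adjusted p = 0.00316), a log2 change of 0.92 ± 0.0939 (SE). The release factor genes Gspt1 and Etf1 were 1.60-fold and 1.56-fold higher. Among initiation partners 5 of 11 were higher and 0 lower, with the helicase Dhx29 at 1.68-fold, the RNA-binding protein Larp4 at 1.67-fold and Mcts2, a close copy of Mcts1 whose probe set may read both, at 1.48-fold. In the poly(A)-binding group Pabpc4 was 1.33-fold higher and Paip2, which restrains the poly(A)-binding protein, 1.53-fold lower, and 3 of 5 did not pass.

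Some genes that modify or regulate the factors passed and others did not. Srm, spermidine synthase, which supplies the substrate for the hypusine of eIF5A, was at 8.56, 8.46 and 8.52 with oil and at 10.02, 10.75 and 10.54 with progesterone (3.79-fold, log2 change 1.92 ± 0.182 SE, limma adjusted p = 0.00228). Odc1, the first enzyme of polyamine synthesis, was 1.84-fold higher, while Dhps and Dohh, which build hypusine, had changes of 0.22 and 0.27 and did not pass. Of 7 genes that make diphthamide, the modified histidine of eEF2, Dnajc24, Dph1 and Dph2 were higher (1.86-fold, 1.72-fold and 1.61-fold) and 4 did not pass. For this list and those that follow, the share called higher over all genes was 5.92%. Of 5 eIF2 phosphatase subunits, Ppp1r15b, which directs the phosphatase to eIF2, was 1.41-fold higher, and the stress-induced Ppp1r15a had a change of 0.06. Among 11 genes of the eIF4E and TOR kinases and their regulators 1 was higher and 3 were lower, against 5.92% and 5.83% of all genes. Sesn2, an amino acid sensor that restrains TOR, was 2.24-fold higher, and Deptor, a TOR inhibitor, Sesn1 and the eIF4E kinase gene Mknk2 were 1.84-fold, 1.52-fold and 1.29-fold lower. Of 8 mitochondrial factors Tsfm was higher (1.67-fold), and of 3 selenocysteine genes Sephs2 (1.49-fold), where 5.92% of all genes were called higher. With the replicate block 20 of the 60 were higher and 3 lower, against 7.6% and 8.49% of all genes. Mknk2 was no longer called (adjusted p = 0.0558), and the initiation partner Bzw2 (0.126 without the block and 0.0302 with it) and the mitochondrial elongation factor gene Gfm1 (0.0514 and 0.0206) were.

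With 1 array left out, the changes of the 22 called genes of these lists stayed between 0.786 and 1.26 times their size over all arrays, both for Odc1, but not all calls held. Abce1, Paip2, Dhx29, Sesn2, Srm, Dnajc24, Tsfm and Sephs2 passed in all 6 fits without 1 array. Mcts2 lost its call without oil replicate 2 or progesterone replicate 2 (adjusted p = 0.0668 and 0.0572). Larp4 and Ppp1r15b lost it without oil replicate 1 (0.052 and 0.0597), oil replicate 2 (0.0626 and 0.0703) or progesterone replicate 2 (0.0518 for both), and Deptor without oil replicate 1 or 2 (0.0658 and 0.0659) or progesterone replicate 3 (0.0504). Etf1, Gspt1 and the initiation partner Bzw1 passed only without oil replicate 3 or progesterone replicate 1, and Dph2 only without oil replicate 1 or progesterone replicate 1. Pabpc4 and Sesn1 passed only without progesterone replicate 1 and Odc1 only without oil replicate 3. Dph1, Mknk2 and the initiation partner Larp1 passed in none, and adjusted p reached at most 0.132 in these fits. Odc1 also missed the threshold with the offset (0.052) and with the mean of probe sets (0.0695).

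**Figure D5:**
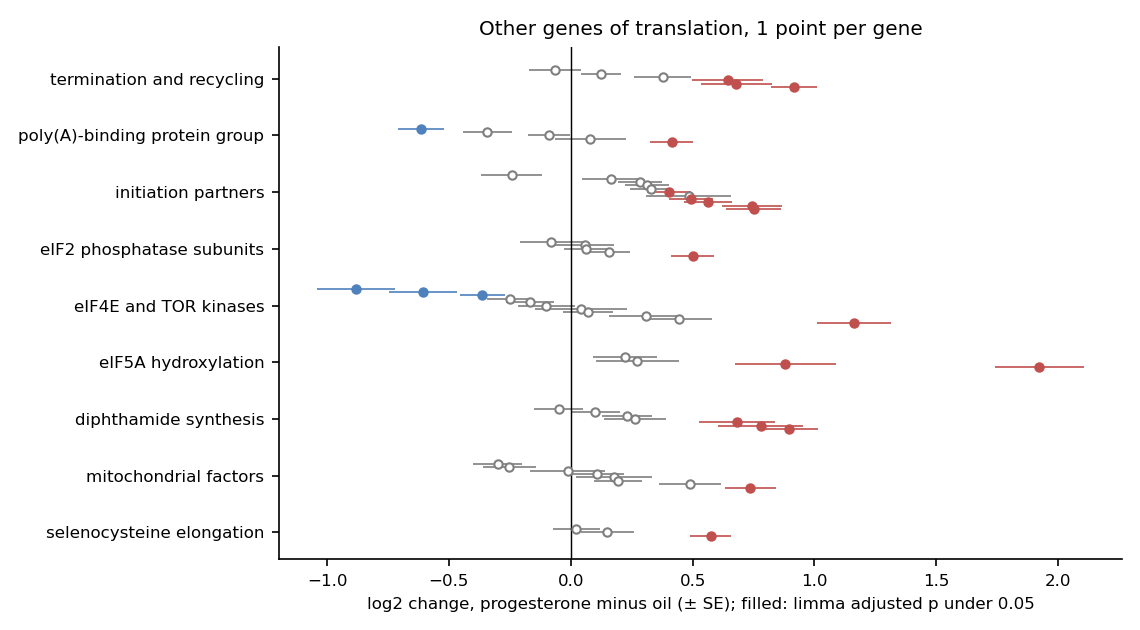
Log2 change (progesterone minus oil, with its SE) of the 60 other genes of translation, 1 point per gene, by list, with filled points for genes past the threshold. The largest rise is that of Srm at 1.92 and the largest fall that of Deptor at -0.88.

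Markers of uterine epithelium, stroma and myometrium were all above the TrpnX controls. Of the 6 stromal markers Hand2 and Hoxa10 were higher (log2 change 0.64 and 0.88, limma adjusted p = 0.0157 and 0.00624). The others did not pass, with changes of 0.66 (Col1a1), -0.003 (Pdgfra), -0.33 (Dcn) and -0.53 (Vim). Summed as log2 of linear values, the stromal markers ran from 14.53 to 14.70 with oil and from 14.33 to 14.63 with progesterone. Of the 5 myometrial markers 0 passed, and their sums ran from 14.70 to 14.74 and from 14.55 to 14.79. The array medians lay between 5.51 and 5.53. Some arrays stood apart in other cell types. The summed level of 5 neutrophil markers (log2 of the sum of linear values) was 6.52, 6.63 and 12.89 on oil replicates 1 to 3 and 6.64, 12.82 and 13.42 on progesterone replicates 1 to 3, with 0 of 5 past the threshold and none at the TrpnX level throughout. Macrophage markers ran from 9.77 to 11.43 with oil and from 9.49 to 11.56 with progesterone (0 of 5), and dividing-cell markers were highest on both arrays numbered 3, at 10.72 and 10.96 (0 of 4). Epithelial markers ran from 13.36 to 13.57 with oil and from 12.59 to 13.35 with progesterone (0 of 6), and endothelial markers from 10.55 to 10.88 and from 10.44 to 10.50 (0 of 5). Adipocyte markers ran from 8.88 to 9.97 and from 6.59 to 8.97 (0 of 3), skeletal muscle markers from 9.02 to 9.51 and from 10.35 to 11.34 (1 of 5 higher, Acta1, and 1 at the TrpnX level) and liver markers from 6.35 to 9.66 and from 8.61 to 8.84 (1 of 4 higher, Ttr). The other 4 muscle markers read at most 5.10 on any array. Oil replicate 3 stood apart in the other 3 liver markers, with Alb at 8.71, Apoa1 at 6.82 and Apoa2 at 6.72, where no other array exceeded 4.68. Their part in the changes of the translation factors was not tested.

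Without both arrays numbered 3, 2 genes of the set were higher, Eef1e1 and Eif4e, and 0 were lower, against 3.22% and 2.42% of all genes, and 21 genes of the set and 4139 of all genes (22.8%) had an unadjusted p under 0.05 in limma. Without the 3 arrays high in neutrophil markers, which leaves 1 progesterone array whose spread is assumed to be that of the oil arrays, no gene passed in limma (0% of all genes), and 10 genes of the set and 3379 of all genes (18.6%) had an unadjusted p under 0.05. The 12 genes kept their direction in both fits, which was fixed in advance because their groups lay apart on all 6 arrays. Their change was 0.82 to 1.04 times that over all arrays in the former and 0.569 to 1.19 times in the latter, with Eif2b3 the lowest in both.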

How the data were processed

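The authors deposited log2 expression values for 45101 probe sets on each of the 6 arrays. The submitters' processing notes name Partek 6.6 and RMA, with other settings not given in the sources used here. Platform annotation gave 1 gene symbol to 34945 probe sets, several to 932 and none here to 9160, and 64 were controls. RefSeq's table of GRCm38.p6 held the gene identifiers of 34741.

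One probe set stood for each gene, that of highest mean. The model had the group as its only term (limma 3.58.1, R 4.3.3, two-sided), and p-values of 18193 genes were adjusted together by Benjamini-Hochberg, with calls at 0.05. It was tested on simulated data. Residuals of equally numbered arrays correlated over the genes (0.523, 0.141 and 0.636). Each exceeds 0.1, which was the criterion for treating the numbers as pairs, although oil replicate 2 correlated more with progesterone replicate 1 (0.322) and no label says what a number shares. Although the criterion was met, the main fit left the numbers out, and the fit with the block served as an alternative. Values from the fit with the replicate number as a block stand beside a result where its call differs.

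All genes of the set are accounted for. Array values were given by rule for called genes (up to 4 per complex, by size) and for the largest change of a complex with fewer than 2 calls, and further genes were described after their values were seen. Up to 3 called genes per further list were named, or more after seeing their values. The set, the complexes and the lists were chosen with earlier results of these data known. The settings varied were a repeat quantile normalization, median centring, adding 32 before taking log2, dropping the dimmest 25% of genes, averaging a gene's probe sets, testing each probe set, an intensity trend in eBayes, the replicate block and the omission of each array. Fits that omit several arrays were chosen after seeing the data.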

Additional observations from a re-analysis of the deposited data

How the results depend on the processing

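Over all genes, 1077 were higher and 1060 lower. Leaving out 1 array gave 379 to 848 higher and 278 to 907 lower over all genes, 2 to 8 higher and 0 to 1 lower in the set, and a median change of the set from 0.0708 to 0.13. By complex, the genes called in these fits ranged from 0 to 1 for eIF1 and eIF1A, eIF2B, eIF2 with eIF2A and eIF2D, eIF3 and eIF6, from 1 to 3 for the eIF4 genes, and from 8 to 20 for the other genes of translation. Without both arrays numbered 3 there were 586 higher and 441 lower over all genes, 2 and 0 in the set, 1 call among the eIF4 genes, 10 among the other genes of translation and 0 in eIF1 and eIF1A, eIF2B, eIF2 and eIF3. Without the 3 arrays high in neutrophil markers every count, that of eEF1 included, was 0, a fit with 1 residual degree of freedom.

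The offset gave 4 lower genes in the set, 2 calls in eIF2 with eIF2A and eIF2D and 1 in eEF2. Over all genes it also called more genes higher and more lower than the main fit (1077 and 1060). Every probe set on its own gave 1 lower gene in the set, 2 calls in eIF1 and eIF1A, 1 in the eIF2 kinases and 2 in eIF3. Of all probe sets 4.9% were then higher and 4.09% lower. The mean of probe sets gave 2 calls in eIF1 and eIF1A and 1 in eIF2B, renormalization by quantiles 2 in eIF3, and the trended eBayes 2 in eIF1 and eIF1A. Over all genes the mean of probe sets called more genes higher and fewer lower than the main fit. Renormalization and the trend called more in both directions. Leaving out the lowest 25% of genes gave a median of 0.14 and 2 calls in eIF1 and eIF1A, with more of the remaining genes called in both directions than in the main fit. The replicate block gave 2 calls in eIF1 and eIF1A, 1 in the 4E-binding proteins and 1 in eIF5, eIF5A and eIF5B. It changed no call of the 12 genes past the threshold. With the block 7.6% of all genes were higher and 8.49% lower, against 5.92% and 5.83% in the main fit.

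Changes near 0 changed sign. With the mean of probe sets these were Eef1aknmt (0.08), Eef2k (0.0244), Eif2ak3 (-0.0111), Eif4e3 (0.0417) and Eif5 (0.0373), and with renormalization by quantiles Eef1b2 (0.00861) and Eif4h (-0.0481). With 1 array left out they were Eef1a2 (-0.183 to 0.0567), Eef1akmt2 (-0.197 to 0.0283), Eef1aknmt (-0.137 to 0.0733), Eef2k (-0.07 to 0.04), Eef2kmt (-0.197 to 0.0583), Eif2s3y (-0.122 to 0.0333), Eif3c (-0.025 to 0.095), Eif3l (-0.005 to 0.105), Eif4e3 (-0.483 to 0.277) and Eif4h (-0.0217 to 0.0333). None of these genes passed in any of these fits. Apart from the fewer arrays of the fits that leave some out, the cause was not tested. The number of arrays and, for Eif2s3y and Eif4a3, signal near background limit the precision.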
